A study of Mus musculus with 10 samples.

Results

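Genes of the Wnt, Notch, Hedgehog, BMP and FGF signalling pathways were examined in whole brain of mice at postnatal day 0, in animals with a single X chromosome and in females with 2. Members were the probe sets with 1 gene symbol that names a Wnt ligand, Frizzled receptor (Fzd), Dishevelled (Dvl), Notch, Dll or Jag, Bmp, Bmp receptor, Smad, Fgf, Fgf receptor, Gli, Ptch, Shh or Smo. They came to 101 of the 12488 probe sets on the array and to 80 genes, of which 25 belonged to Wnt signalling, 6 to Notch, 6 to Hedgehog, 21 to BMP and 22 to FGF. The series comprised 10 Affymetrix oligonucleotide arrays in 4 groups. XmO animals (39 chromosomes, a single X labelled m; 3 arrays, replicates 1, 2 and 7) and XX_Paf females (3 arrays, replicates 1, 2 and 3) came from the cross C57BL/6J x C3H/Paf. XpO animals (39 chromosomes, a single X labelled p; 2 arrays, replicates 15 and 18) and XX_InX females (2 arrays, replicates 1 and 19) came from the cross In(X)/C3H x C57BL/6J. The label of XX_InX replicate 1 speaks of females in the plural, and whether RNA was pooled is not stated. No label states that arrays are separate animals, so the p-values below measure the spread between arrays, which may be partly technical.

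These 5 pathways carry most of the signals that pattern the embryonic brain. Wnt proteins bind Frizzled receptors and act through Dishevelled and beta-catenin, and Notch receptors on one cell are activated by Delta-like and Jagged ligands on its neighbour and keep neural progenitors undifferentiated. Sonic hedgehog binds Patched, which releases Smoothened and so controls the Gli transcription factors. BMP ligands signal through receptor kinases to Smad proteins, and secreted FGFs signal through FGF receptor tyrosine kinases. Fgf11 to Fgf14 are intracellular proteins that bind sodium channels and do not act through FGF receptors.

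Values are intensities on a linear scale, as deposited, and are compared only within a probe set. The animals lack a Y chromosome, so the brightest of 9 Y-linked probe sets on an array was taken as that array's background; it lay between 33.6 and 137. Xist, the RNA that silences 1 X in XX cells, was at 21.3 to 49.9 on the 5 XO arrays, against 1673.4 to 4082.1 on the 5 XX arrays, as the labels require. All 6 neuronal markers examined were above background on all 10 arrays. Correlations between arrays were 0.927 to 0.969. The first principal component (25.6% of the variance) set the 2 XpO arrays apart from each other, at -15 and 27.4. It also parted the XX groups, with XX_Paf at -23.6, -13.2 and -9.77 and XX_InX at 22.4 and 9.54. The XmO arrays lay at -8.73, 3.03 and 8.01. Because whole brains were measured, fewer cells of a type and less RNA per cell cannot be told apart.

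Of the 80 genes, 36 had a probe set above background on all 10 arrays. In the Wnt pathway these were 13 of 25 genes: the ligands Wnt1, Wnt3, Wnt5a, Wnt7b and Wnt10a, the receptors Fzd1, Fzd2, Fzd3, Fzd4, Fzd8 and Fzd9, and the mediators Dvl1 and Dvl2. In the Notch pathway 5 of 6 genes were above background throughout, namely Dll1, Jag2, Notch1, Notch2 and Notch3. In the Hedgehog pathway 3 of 6 were, namely Shh, Ptch1 and Smo. In the BMP pathway 10 of 21 were, namely Bmp1, Bmp4, Bmp6, Bmp7, Smad1, Smad2, Smad4, Smad5, Smad6 and Smad7. Bmp1 is a protease that shares only the name. All Smads were counted here by name, and Smad2 is not a BMP-activated Smad. In the FGF group 5 of 22 were, namely Fgf4, Fgf11, Fgf13, Fgfr1 and Fgfr2. No array showed Wnt2b, Wnt7a, Wnt8a, Wnt11, Bmp8b, Bmp10, Bmp15, Fgf2, Fgf3, Fgf8, Fgf10, Fgf15, Fgf17 or Fgfr4 above background, so nothing can be read from their values here. For the 44 member probe sets above background throughout, the highest of the 10 arrays was 1.34 to 3.15 times the lowest (median 1.66), and for 36 of them it was under 2 times. Requiring every array to be above background itself leaves out probe sets with a low array. The spread of other probe sets under the same requirement was not examined, so this is not a trait of the pathways.

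**Figure D1:**
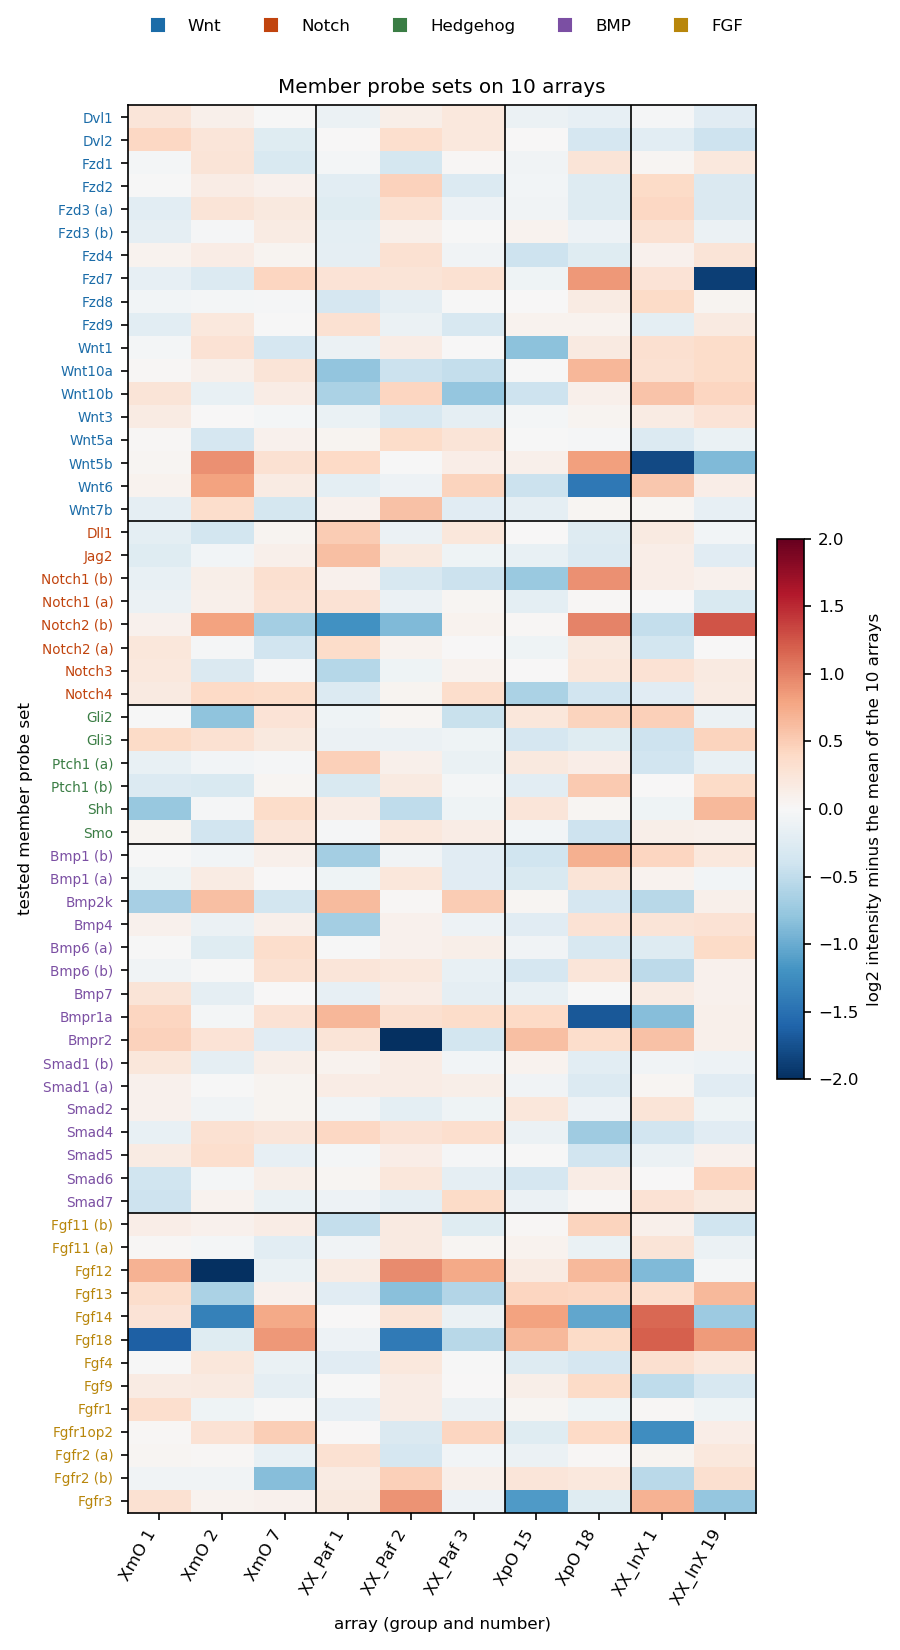
Member genes with a tested probe set (rows, by pathway) on the 10 arrays (columns: XmO, XX_Paf, XpO, XX_InX); colour is log2 intensity minus the mean of the row, clipped at 2 either way. A letter a marks the brightest probe set of a gene and b another one; no pathway forms a block of one colour in any group, and the strongest colours lie in dim genes such as Wnt5b, Fgf12 and Fgf18.

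Whether loss of 1 X moved the pathways was asked first across both crosses, as the mean of XmO minus XX_Paf and XpO minus XX_InX on the log2 scale. Of the 101 member probe sets, 61 (52 genes) were bright enough to be tested, and none passed in XO against XX with limma (adjusted p under 0.05 over 8695 tested probe sets). In that comparison 0.0115% of all tested probe sets passed. At an unadjusted p under 0.05 there was 1 member, 1.64% of the 61, against 2.6% of all tested probe sets. For no member did the XO arrays lie clear of the XX arrays in the same direction in both crosses, as they did for 0.851% of all. Taking the brightest probe set of each gene, 23 members were higher and 29 lower in XO animals with a median log2 difference of -0.06, while all 6458 tested genes divided into 3240 higher and 3218 lower with a median of 0.00. The pathway medians lay between -0.09 for FGF (4 genes higher, 7 lower) and 0.05 for Hedgehog (3 higher, 2 lower), with 0.00 for Wnt (9 higher, 8 lower), -0.05 for Notch (3 higher, 3 lower) and -0.08 for BMP (4 higher, 9 lower). A single array turned the sign of 3 of these: the FGF median was 0.07 without XmO replicate 2, the Hedgehog median -0.17 without XX_InX replicate 1 and the Notch median 0.02 without XpO replicate 15, while the BMP median stayed between -0.13 and -0.03. The 11 FGF genes include 4 intracellular FGFs (1 higher, 3 lower, median -0.14), which do not act through FGF receptors. They also include Fgfr1op2, and the 13 BMP genes include Bmp1 and Bmp2k, which are named for the pathway only. Smad2 is counted among the BMP genes too. The data bounded most differences: the 95% interval of the log2 difference lay within 1 either way for 50 of 61 probe sets, that is, within a doubling or halving, and its median half-width was 0.39. For the other 11 the interval reached further, so a larger difference is not excluded by these arrays.

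**Figure D2:**
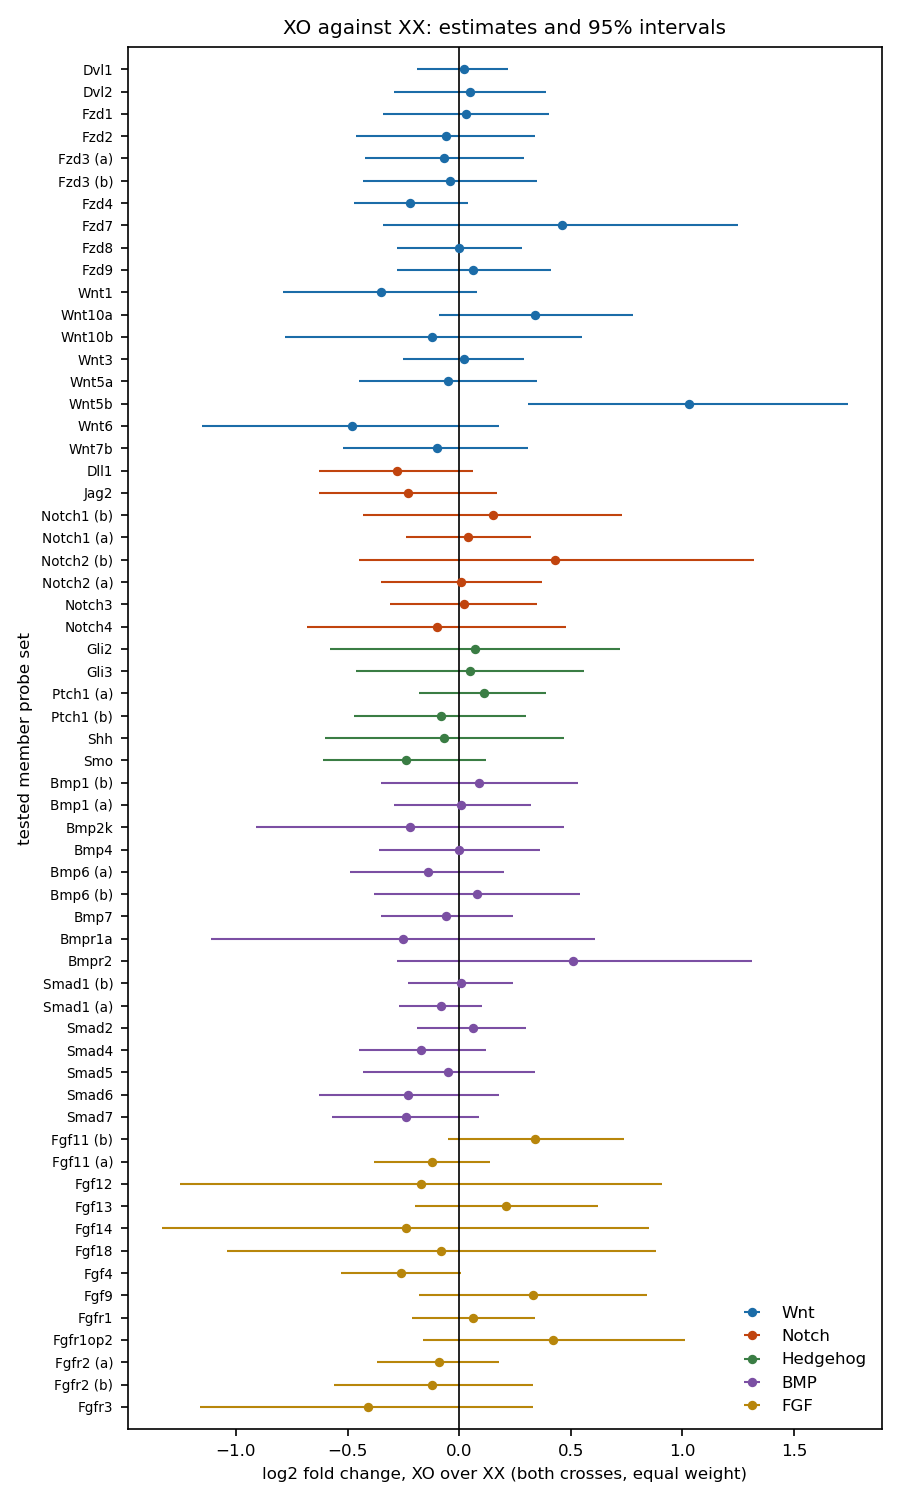
Log2 difference of XO against XX for the tested member probe sets, grouped by pathway, with 95% intervals from limma (horizontal bars); the vertical line marks no difference. All intervals but that of Wnt5b reach or cross 0, and the Wnt5b value is a fitted one that rests on XX_InX arrays below background; the intervals of steady genes such as Smad1 and Fzd8 are narrow.

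Within the cross C57BL/6J x C3H/Paf, no member passed in XmO against XX_Paf (0.023% of all tested probe sets passed). At an unadjusted p under 0.05 there were 2 member probe sets, 3.28% against 5.53% of all. The 3 XmO arrays did not overlap the 3 XX_Paf arrays for 6 members, 9.84% against 13.9% of all. Of the 52 genes 29 were higher and 23 lower in XmO, with a median log2 difference of 0.03.

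Within the cross In(X)/C3H x C57BL/6J, no member passed in XpO against XX_InX either (0.0115% of all passed), where 4 member probe sets had an unadjusted p under 0.05, 6.56% against 3.38% of all. The 2 XpO arrays did not overlap the 2 XX_InX arrays for 17 members, 27.9% against 23.4% of all; 5 of these were higher and 12 lower in XpO, beside 11.3% and 12.1% of all. More members lay lower than higher in this cross: 16 genes were higher and 36 lower in XpO with a median log2 difference of -0.13, beside 3096 higher and 3362 lower and a median of -0.01 over all genes. BMP genes leaned lower the most, with 2 higher and 11 lower and a median of -0.18, and the log2 differences of the 6 tested Smad genes, each by its brightest probe set, were all below 0, between -0.31 and -0.03. That lean rested on the library XpO replicate 18: without it the BMP median was 0.01.

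No member passed in the difference of the XO effects between the crosses, which is XmO minus XX_Paf less XpO minus XX_InX (0.023% of all tested probe sets passed). At an unadjusted p under 0.05 there were 6 members, 9.84% against 5.91% of all. Of the 52 genes, 33 had a higher XO effect in the cross with Paf and 19 a lower one, and the median difference was 0.16, beside 0.01 over all genes. In 1 member, 1.64% against 2.02% of all, the groups lay clear of each other in both crosses and in opposite directions. The interval lay within 1 log2 unit either way for 25 of 61 probe sets, so this comparison was the least precise of the 6.

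**Figure D3:**
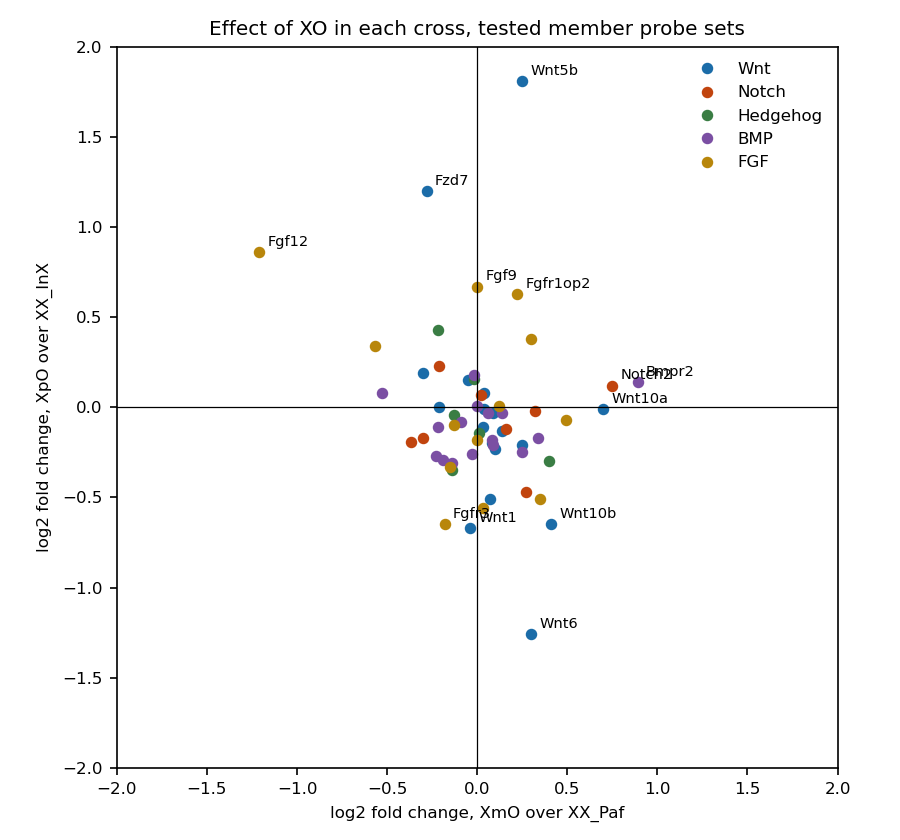
Log2 difference of XmO against XX_Paf (horizontal) and of XpO against XX_InX (vertical), 1 point per tested member probe set, coloured by pathway. Named points lie away from the centre; values for Wnt5b, Fgf9 and Fgf12 on the vertical axis are fitted values against XX_InX arrays below background.

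The single X labelled m was set against the one labelled p in XmO against XpO, a comparison in which the cross differs too. No member passed (0.0115% of all passed), and 3 members had an unadjusted p under 0.05, 4.92% against 4.83% of all. The groups did not overlap for 13 members, 21.3% against 17.4% of all. The same crosses were compared in XX females, where a batch that went with the cross could not be told apart from it. In XX_Paf against XX_InX no member passed while 0.0805% of all tested probe sets did, and 10 members had an unadjusted p under 0.05, 16.4% against 13.8% of all. The XX groups did not overlap for 21 members, 34.4% against 37.1% of all. The members' median absolute log2 difference was 0.29 between the XX groups, beside 0.22 over all probe sets, and 0.10 in XO against XX, beside 0.09 over all.

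Among the Wnt ligands, Wnt5b, which acts mainly through beta-catenin-independent signalling, had the smallest p of any member in XO against XX. Its intensities were 74.7, 136 and 89.5 in XmO, 95.2, 71.8 and 79.1 in XX_Paf, 78.1 and 128 in XpO, and 20.7 and 39.2 in XX_InX. The XX_InX arrays were thus low, while the other 3 groups overlapped. In the cross with Paf the log2 difference was 0.25 ± 0.42 (SE) in XmO against XX_Paf. The probe set was above background on 5 of 10 arrays and on neither XX_InX array, where the background was 103 and 97.5, so no size is given for a difference that involves that group. In XO against XX the unadjusted p was 0.0084 and the adjusted p 0.9995 (limma). Against XX_InX the adjusted p was 0.9998 for XpO and 0.203 for XX_Paf. RefSeq (GRCm38.p6) gives 3 start sites for Wnt5b, and 1 of the 3 promoter windows, at chr6:119449337-119449636 on the minus strand, holds the TCF/LEF motif of Wnt target genes; it is shown because Wnt5b is the member with the smallest p, with the motif in capitals.
Wnt5b: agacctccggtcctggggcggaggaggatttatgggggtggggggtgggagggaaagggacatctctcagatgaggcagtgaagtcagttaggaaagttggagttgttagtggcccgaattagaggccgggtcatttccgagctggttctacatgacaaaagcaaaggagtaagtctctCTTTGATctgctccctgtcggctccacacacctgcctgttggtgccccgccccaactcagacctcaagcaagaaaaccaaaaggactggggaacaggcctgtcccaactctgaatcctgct
The motif searched was ATCAAAG on both strands, and CTTTGAT is its reverse complement, with its first base at -71 from the start. It occurs in 2 of 20 promoters of Wnt member genes (Wnt11 and Wnt5b) and in 3.73% of 32851 mouse promoters of the same 300 bases, so the match is a description of the sequence only.

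Wnt10a, another ligand, was at 142, 149 and 166 in XmO, against 80.4, 104 and 99.7 in XX_Paf. Every XmO array was above every XX_Paf array, with a log2 difference of 0.70 ± 0.25 (SE; unadjusted p = 0.0174, adjusted p = 0.877, limma). In the other cross it was at 138 and 221 in XpO, against 173 and 179 in XX_InX, which overlap, and over both crosses the log2 difference was 0.34 ± 0.20 (SE). The XX_Paf arrays were also below both XX_InX arrays, by 0.90 on the log2 scale (log2 difference -0.90 ± 0.28 SE, adjusted p = 0.214, limma). Wnt3 averaged 296 ± 22.6 in XmO, against 248 ± 16.6 in XX_Paf (SD, n = 3 each), and 287 ± 14.4 in XpO, against 333 ± 18.6 in XX_InX (SD, n = 2 each). Every XmO array was above every XX_Paf array, and every XpO array was below every XX_InX array, so the order was opposite in the 2 crosses; the difference of 0.47 ± 0.25 (SE) had an adjusted p of 0.845 (limma). In XX_Paf against XX_InX its log2 difference was -0.43 ± 0.18 (SE, adjusted p = 0.316). Wnt6 was at 63.3 and 31.6 in XpO, against 123 and 93.6 in XX_InX, and at 89, 148 and 94.7 in XmO, against 73.8, 79.3 and 116 in XX_Paf. The XpO arrays were the lowest 2 of the 10, with a log2 difference of -1.26 ± 0.48 (SE) from XX_InX (adjusted p = 0.9998, limma) and of 1.27 ± 0.43 for XmO against XpO (adjusted p = 0.78), and the difference between crosses was 1.56 ± 0.62 (adjusted p = 0.832). Wnt6 was above background on 6 of 10 arrays. Wnt1, which maintains the midbrain and its boundary with the hindbrain, was at 140 and 282 in XpO, against 309 and 321 in XX_InX (log2 difference -0.67 ± 0.31 SE, adjusted p = 0.9998, limma), and averaged 248 ± 53.6 in XmO, against 252 ± 23.2 in XX_Paf (SD, n = 3 each). XpO replicate 15 was the lowest of the 10 arrays, and without it the log2 difference in XpO against XX_InX was -0.16. In XO against XX it was -0.35 ± 0.20 (SE), and -0.10 without that array.

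Among the Wnt receptors, Fzd4 was at 435 and 491 in XpO, the lowest 2 arrays, against 615 and 699 in XX_InX. It was at 613, 646 and 602 in XmO, against 514, 719 and 554 in XX_Paf, and these groups overlapped. The log2 difference was -0.51 ± 0.18 (SE) in XpO against XX_InX (adjusted p = 0.9998, limma) and 0.42 ± 0.17 in XmO against XpO (adjusted p = 0.969). It was -0.22 ± 0.12 (SE) in XO against XX, and the difference between crosses was 0.58 ± 0.24 (adjusted p = 0.832). Fzd7 was at 120 and 230 in XpO, against 153 and 34.2 in XX_InX. Its log2 difference of 1.20 ± 0.57 (SE, adjusted p = 0.9998, limma) was 0.11 without the low array, XX_InX replicate 19. The mediators Dvl1 and Dvl2 had log2 differences in XO against XX of 0.02 for Dvl1 and 0.05 for Dvl2. Dvl2 averaged 395 ± 43.5 in XX_Paf (SD, n = 3), against 279 ± 27.6 in XX_InX (SD, n = 2), with a log2 difference of 0.50 ± 0.22 (SE, adjusted p = 0.344, limma) and no overlap.

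**Figure D4:**
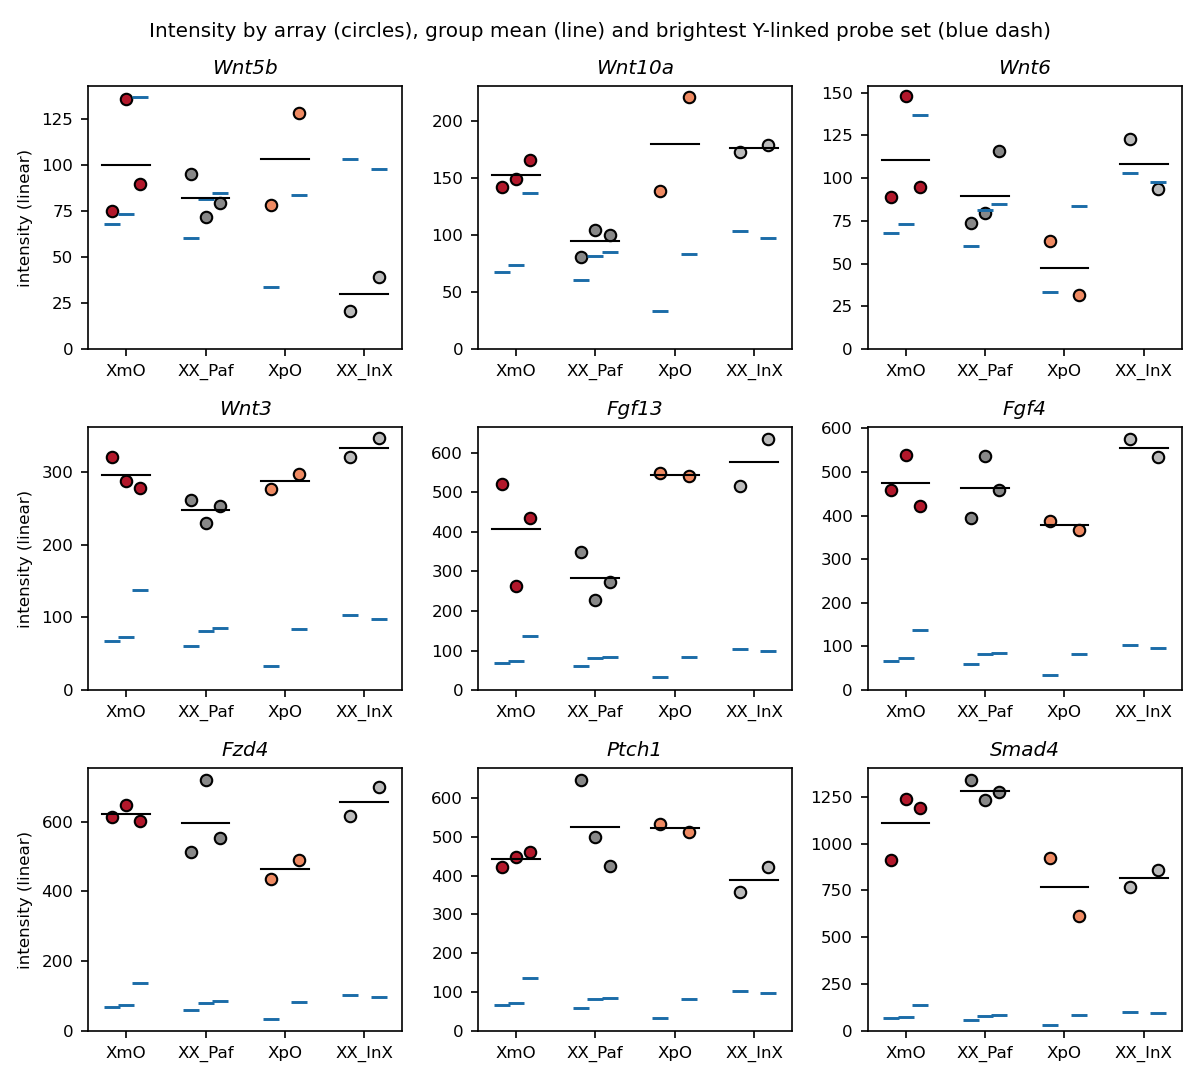
Intensity of 9 member genes on each array (circles; horizontal lines are group means; the blue dashes are the brightest Y-linked probe set of the array). Groups run XmO, XX_Paf, XpO, XX_InX; the 2 XX_InX circles of Wnt5b lie below their dashes, the 2 XpO circles of Wnt6 and Fzd4 are the lowest of the 10, and the 3 XX_Paf circles of Fgf13 lie below all 4 circles of the other cross.

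In the Notch pathway the 2 tested ligands were lower in XO animals in both crosses, without passing. Dll1, the Delta-like ligand of neural progenitors, was at 250, 221 and 296 in XmO, against 407, 262 and 332 in XX_Paf, and at 286 and 239 in XpO, against 323 and 274 in XX_InX. The groups overlapped in each cross, and the log2 difference in XmO against XX_Paf was -0.37 ± 0.20 (SE, adjusted p = 0.887, limma). Over both crosses it was -0.28 ± 0.16 (adjusted p = 0.9995). Jag2 had a log2 difference of -0.23 ± 0.19 (SE) in XO against XX. The brightest probe sets of the 4 receptors had log2 differences between -0.10 and 0.04. For Notch2 the probe sets disagreed in XmO against XX_Paf, where the brighter had -0.21 ± 0.21 (SE) and the dimmer 0.75 ± 0.51. Notch1, for example, averaged 613 ± 86.2 in XmO, against 605 ± 86.9 in XX_Paf (SD, n = 3 each), and 542 ± 58.3 in XpO, against 520 ± 82.5 in XX_InX (SD, n = 2 each). Notch4, a receptor mainly of endothelium, was at 90.5, 106 and 103 in XmO, against 51.7 and 61.5 in XpO (log2 difference 0.82 ± 0.38 SE, adjusted p = 0.969, limma). Those groups did not overlap, and Notch4 was above background on 6 of 10 arrays.

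In the Hedgehog pathway Ptch1, both the receptor of Shh and a target of Gli, was at 421, 447 and 461 in XmO, against 646, 500 and 425 in XX_Paf. The lowest XX_Paf array lay among the XmO arrays. In the other cross both XpO arrays, at 532 and 513, lay above both XX_InX arrays, at 357 and 421. The log2 difference was -0.22 ± 0.17 (SE) in XmO against XX_Paf and 0.43 ± 0.20 in XpO against XX_InX, and their difference was -0.65 ± 0.26 (adjusted p = 0.832, limma). Without XX_Paf replicate 1 the log2 difference in XmO against XX_Paf was -0.06. In XX_Paf against XX_InX it was 0.41 ± 0.19 (SE, adjusted p = 0.355). The second Ptch1 probe set did not show this: it was at 240 and 399 in XpO, against 280 and 364 in XX_InX, a log2 difference of -0.04 ± 0.28 (SE), and had -0.25 ± 0.25 in XX_Paf against XX_InX. Shh averaged 172 ± 62.5 in XmO, against 165 ± 36.9 in XX_Paf (SD, n = 3 each), and 199 ± 19.9 in XpO, against 226 ± 79.6 in XX_InX (SD, n = 2 each). Smo, the transducer that Ptch1 restrains, had a log2 difference of -0.24 ± 0.17 (SE) in XO against XX, with an interval of -0.61 to 0.12. Gli1, which Hedgehog signalling itself induces, was above background on 2 of 10 arrays and was not tested, while Gli2 and Gli3 had log2 differences of 0.07 and 0.05 in XO against XX. For Gli3 this averages opposite signs in the 2 crosses. Its log2 difference was 0.4 ± 0.3 (SE) in XmO against XX_Paf, without overlap (adjusted p = 0.887, limma). In XpO against XX_InX it was -0.3 ± 0.37 (adjusted p = 0.9998, limma). Gli3 was above background on 8 of 10 arrays and Gli2 on 6 of 10. XmO replicate 7, with Gli3 at 119, was below its background of 137. The Ptch1 promoter is shown because Ptch1 is the pathway's usual readout, from chr13:63565686-63565985 on the minus strand (RefSeq, GRCm38.p6).
Ptch1: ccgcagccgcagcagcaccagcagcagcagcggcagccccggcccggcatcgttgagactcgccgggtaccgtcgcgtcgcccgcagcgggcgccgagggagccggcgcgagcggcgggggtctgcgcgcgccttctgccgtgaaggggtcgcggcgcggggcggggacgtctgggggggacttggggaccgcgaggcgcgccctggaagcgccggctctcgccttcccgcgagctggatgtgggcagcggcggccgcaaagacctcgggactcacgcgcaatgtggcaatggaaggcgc
The GLI motif searched, GACCACCCA on both strands, is not in this window or in any of the 4 promoters of Hedgehog members, and occurs in 0.253% of all promoters; this says nothing about binding of Gli there.

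In the BMP pathway the ligand Bmp4 averaged 347 ± 29.4 in XmO, against 298 ± 75.8 in XX_Paf (SD, n = 3 each), and 354 ± 88.7 in XpO, against 414 ± 5.44 in XX_InX (SD, n = 2 each). Its log2 difference in XO against XX was 0.00 with an interval of -0.36 to 0.36, and that of Bmp7 was -0.06 with an interval of -0.35 to 0.24. Bmp7 was at 380, 281 and 321 in XmO, against 283, 354 and 282 in XX_Paf, which overlap, and at 287 and 317 in XpO, against 358 and 339 in XX_InX, which do not (log2 difference -0.21). The 2 Bmp6 probe sets disagreed in XO against XX, with -0.14 ± 0.16 (SE) for the brighter and 0.08 ± 0.21 for the other. The type II receptor Bmpr2 was at 214, 188 and 133 in XmO, against 186, 37.2 and 121 in XX_Paf, where the low array was replicate 2 (log2 difference 0.89 ± 0.47 SE, adjusted p = 0.887, limma, and 0.22 without that array). Among the mediators, Smad4, the partner that all receptor-activated Smads share, was compared between the crosses as well. It was at 912, 1236.5 and 1189.7 in XmO, against 1338.4, 1234.9 and 1273.6 in XX_Paf, and at 923 and 612 in XpO, against 769 and 861 in XX_InX. Every XX_Paf array was above every XX_InX array, with a log2 difference of 0.65 ± 0.18 (SE, unadjusted p = 0.0037, adjusted p = 0.186, limma). In XmO against XpO the log2 difference was 0.55 ± 0.18 (adjusted p = 0.78), with 912 and 923 as the touching values; it was 0.26 without XpO replicate 18 and 0.85 without XpO replicate 15. Smad1, a BMP-activated Smad, was bounded tightly: its brightest probe set had a log2 difference of -0.08 in XO against XX, with an interval of -0.27 to 0.10, and the other had 0.01 with an interval of -0.23 to 0.24. Bmp15, an ovarian ligand and 1 of the 2 X-linked members, was below background on every array and was not tested.

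In the FGF group the other X-linked member, Fgf13, encodes an intracellular protein of neurons. Its intensities were 521, 263 and 434 in XmO, against 349, 227 and 272 in XX_Paf, and 548 and 541 in XpO, against 516 and 635 in XX_InX. XO and XX animals overlapped in both crosses, and the log2 differences were 0.49 ± 0.24 (SE) in XmO against XX_Paf (adjusted p = 0.887, limma), -0.07 ± 0.29 in XpO against XX_InX (adjusted p = 0.9998) and 0.21 ± 0.19 over both (adjusted p = 0.9995). The interval over both crosses, -0.20 to 0.62, does not reach -1, the log2 difference that a level halved in XO animals would give. The crosses did not overlap in XX females: XX_Paf was below XX_InX with a log2 difference of -1.04 ± 0.27 (unadjusted p = 0.00203, adjusted p = 0.184), the smallest unadjusted p of any member in any of the 6 comparisons. XmO was below XpO on every array too, with a log2 difference of -0.48 ± 0.27 (adjusted p = 0.969).

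Fgf4, a ligand of early development, was at 387 and 368 in XpO, against 576 and 535 in XX_InX, and at 458, 540 and 423 in XmO, against 394, 537 and 458 in XX_Paf. The XpO arrays were the lowest 2 of the 10, and the log2 difference was -0.56 ± 0.19 (SE) in XpO against XX_InX (unadjusted p = 0.0133, adjusted p = 0.9998, limma) and -0.26 ± 0.12 in XO against XX (adjusted p = 0.9995). The difference between crosses was 0.59 ± 0.25 (adjusted p = 0.832). Fgf9, a ligand with neuronal sources, was at 100 and 119 in XpO, against 64.8 and 73.1 in XX_InX (adjusted p = 0.9998, limma). Both XX_InX arrays were below their backgrounds of 103 and 97.5. XpO replicate 15, at 100, did not reach the higher of these, so no size is given. Fgf18, another ligand, was at 76.8, 30.8 and 56.1 in XX_Paf, against 188 and 148 in XX_InX (log2 difference -1.71 ± 0.63 SE, adjusted p = 0.283, limma), and had a log2 difference of -0.85 ± 0.63 in XmO against XpO (adjusted p = 0.993). It was above background on 6 of 10 arrays. The intracellular Fgf12 was at 133, 16.5 and 74.6 in XmO, against 91.4, 158 and 138 in XX_Paf, with a wide spread within XmO and a log2 difference of -1.21 ± 0.63 (SE, adjusted p = 0.887, limma), which was -0.34 without XmO replicate 2. In XmO against XpO it was -0.98 ± 0.70 (SE, adjusted p = 0.983), and -0.12 without that array. In the difference between crosses the adjusted p was 0.832, and both XX_InX arrays were below background, so no size is given. The 2 tested probe sets of Fgf11 had log2 differences of -0.12 ± 0.12 (SE, the brighter) and 0.34 ± 0.18 in XO against XX.

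Among the FGF receptors, Fgfr1 averaged 457 ± 72.7 in XmO, against 418 ± 48.1 in XX_Paf (SD, n = 3 each), and 422 ± 24.2 in XpO, against 420 ± 24.7 in XX_InX (SD, n = 2 each). The brighter Fgfr2 probe set averaged 693 ± 48.6 in XmO, against 706 ± 160 in XX_Paf (SD, n = 3 each). A dimmer Fgfr2 probe set averaged 239 ± 66.6 in XmO, against 348 ± 51.3 in XX_Paf (SD, n = 3 each), with no overlap and a log2 difference of -0.57 ± 0.26 (SE, unadjusted p = 0.046, adjusted p = 0.877, limma). In XmO against XpO that probe set had a log2 difference of -0.56 ± 0.29 (adjusted p = 0.969) while the brighter one had 0.02 ± 0.18, and in the difference between crosses it had -0.91 ± 0.41 (adjusted p = 0.832) while the brighter one had 0.18 ± 0.26. Fgfr1op2, named for a fusion partner of Fgfr1, had a log2 difference of 0.42 ± 0.27 in XO against XX (adjusted p = 0.9995), and 0.08 without XX_InX replicate 1. Of the 9 genes with several tested probe sets, 5 had the same sign in all of them in XO against XX.

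The other genes of the pathways, a list of 206 further ligands, modulators, transducers and targets of which 142 were on the array and 114 were tested, gave 0 passing genes in each of the 6 comparisons (limma). At an unadjusted p under 0.05 there were 3 of 114 in XO against XX, 5 in XmO against XX_Paf, 4 in XpO against XX_InX, 3 in XmO against XpO, 7 in the difference between crosses and 15 in XX_Paf against XX_InX. The shares over all tested probe sets in these comparisons, in the same order, were 2.6%, 5.53%, 3.38%, 4.83%, 5.91% and 13.8%. Of the 114, 59 were higher and 55 lower in XO against XX. The smallest p in XO against XX was that of Sfrp4, a secreted Wnt inhibitor, at 78.4, 115 and 81.7 in XmO, against 47.6, 84.9 and 46.6 in XX_Paf, and at 132 and 180 in XpO, against 61.4 and 25 in XX_InX (unadjusted p = 0.00248, adjusted p = 0.9995, limma). Both XX_InX arrays and 2 of 3 XX_Paf arrays of Sfrp4 were below background, so no size is given. Fstl3, a secreted antagonist of activins and BMPs, had a log2 difference of 0.82 ± 0.26 (SE) in XmO against XX_Paf (adjusted p = 0.877) and of -0.99 ± 0.29 in XX_Paf against XX_InX (adjusted p = 0.192).

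Genes that the pathways are known to induce gave no passing gene either. They were picked after the data were open, from that list and from the members. Those from the members are Smad6 and Smad7, and Gli1 and Ptch1, which are described above. For Wnt, Ccnd1 had the smallest p of these genes in XO against XX, with a log2 difference of 0.29 ± 0.13 (SE, unadjusted p = 0.0394, adjusted p = 0.9995, limma) for its brightest probe set and -0.28 ± 0.17 for the other. Axin2 had 0.09 ± 0.18, and Lef1 had 0.08 ± 0.10 for its brightest probe set and -0.20 ± 0.40 for the other. For Notch, Hes1 had -0.24 ± 0.12 and Hes5 -0.20, and Hey1 had 0.09. For BMP, Id1 had 0.03, Id2 0.06, Id3 -0.04, Id4 -0.08, Smad6 -0.23, Smad7 -0.24 and Msx1 0.31. For FGF, Spry4 had -0.08, Dusp6 -0.11, and Etv4 -0.1 for its brightest probe set and 0.0 for the other. Id1, an inhibitor of neuronal differentiation factors, was at 530, 620 and 675 in XmO, against 467 and 341 in XpO, without overlap (log2 difference 0.60 ± 0.18 SE, adjusted p = 0.78, limma).

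Markers of other cell types were summed per array, so the brightest markers weigh most in each sum. The summed intensity of the 3 erythroid markers on the array was 11170.1 to 17147.7 in XmO, against 11626.2 to 16870.1 in XX_Paf. In the other cross it was 5817.6 to 7335.4 in XpO, against 3985 to 5987.1 in XX_InX. The erythroid sum thus differed between crosses among XO and XX animals alike. The members Fgf13, Smad4, Wnt10a and Wnt5b had no overlap between the XX groups, with Wnt5b below background on both XX_InX arrays. In XmO against XpO only Fgf13 of these was without overlap. The 8 markers of meninges and connective tissue summed to 4126 to 4776.3 in XmO, against 4178.8 to 4924.6 in XX_Paf, and to 3848.4 to 5395.6 in XpO, against 5260.6 to 5489.8 in XX_InX. The 4 choroid plexus markers on the array summed to 7444.4 to 10277.7 in XmO, against 9190.5 to 10106.4 in XX_Paf, and to 9046.3 to 11401.8 in XpO, against 11022.5 to 11555.9 in XX_InX. Most of each choroid plexus sum was Igf2, and Kl was below background on every array. Ttr went the other way between the XX groups, at means of 2475.6 in XX_Paf and 1826.3 in XX_InX, as did Folr1, at 343 and 272. Ttr was lower in XO animals in both crosses, at 1842.9 in XmO and 1262.6 in XpO, without passing. So was Folr1, at 258 and 183, with XpO replicate 18 at 70.4. The meninges and the choroid plexus are sources of Wnt and BMP ligands. The 6 skeletal muscle markers summed to 596 to 1026.8 in XmO, against 591 to 3053.4 in XX_Paf. In the other cross they summed to 659 to 977 in XpO, against 556 to 740 in XX_InX. The high sum was that of XX_Paf replicate 2, with Acta1 at 2448.2. That array was also the low one for Bmpr2. The part of any of these markers in the members' values was not tested.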

How the data were processed

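The deposited table gives linear intensities, a single value for each probe set of each array. The authors' summarising algorithm is not given in the sources used here; the deposited intensities have a mean of 500.3 on every array after trimming 2% at each end, so they had been scaled, and they were not normalized again. Of 12488 probe sets, 66 were controls; the rest had 1 gene symbol (10833), several (396) or none (1193). Intensities under the 10th percentile (15) were raised to it and taken to log2, and the 8695 probe sets with a mean log2 value at or above the 30th percentile (6.094) were tested with limma 3.58.1 in R 4.3.3 (1 mean per group, eBayes with trend, 6 residual and 6.55 prior degrees of freedom, two-sided, Benjamini-Hochberg within each of 6 contrasts). Calls were made below an adjusted p of 0.05. The number of arrays limits the precision. The fit was tested on simulated data. No scanner files or detection calls were used here, so batches could not be examined.

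Pathway counts used the brightest probe set of a gene. Genes were named by a rule: the 4 tested member probe sets of smallest p in each direction in each contrast, any tested X-linked member, and the other probe sets of a gene so named where they disagreed in sign. Further members were described by their role. The members, the lists and the tests were chosen with earlier results of these data known. Where a group was at or below the Y-linked background on every array, the text gives no size for a gene's difference from it.

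Replicate numbers 1 and 2 occur in both XmO and XX_Paf; deviations of same-numbered arrays correlated at -0.0123 and -0.0415, so the numbers were not taken as pairs.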

Additional observations from a re-analysis of the deposited data

Results flagged for a closer look

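Wnt3, a ligand of canonical Wnt signalling, was marked because the XO effect differed in direction between the crosses: every XmO array was above every XX_Paf array (log2 difference 0.25) and every XpO array was below every XX_InX array (-0.21). The difference of the effects was 0.47, with an unadjusted p of 0.0842 and an adjusted p of 0.845 (limma). The opposite, complete separation in both crosses occurred in 1 of the 61 tested members, 1.64% beside 2.02% of all tested probe sets. No group has over 3 arrays, so single arrays were not tested as outliers.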

How the results depend on the processing

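Each count of called members was recomputed under 18 alternatives for XmO against XX_Paf and 17 for each other comparison (quantile normalization, other floors and filters, no trend, array weights, each array left out, and the replicate block). It was 0 under all of them, except 1 in XX_Paf against XX_InX with no filter on dim probe sets (Bmp15, adjusted p = 0.0473, limma), whose values were below background on every array. The lowest adjusted p of any member over the alternatives was 0.48 in XO against XX, 0.382 in XmO against XX_Paf, 0.342 in XpO against XX_InX, 0.183 in XmO against XpO and 0.241 in the difference between crosses. With the replicate block, XmO against XX_Paf had 0 called members, with a lowest adjusted p of 0.9996; the arrays share only a number. Among named values, 6 of 550 with an array left out and 1 of 372 under other settings changed sign: the second Ptch1 probe set in XpO against XX_InX (-0.41 to 0.32 over the arrays left out, lowest without XpO replicate 18 and above 0 at 0.32 without XpO replicate 15 and 0.15 without XX_InX replicate 19), Fgf13 in XpO against XX_InX (-0.22 to 0.08, above 0 without XX_InX replicate 19), and the brighter Fgfr2 probe set in XmO against XpO (-0.0019 with array weights, and -0.06 to 0.09 over the arrays left out, below 0 without XpO replicate 15, XmO replicate 1 or XmO replicate 2). The cause was not tested. Leaving out 1 array moved 29 of the 55 named values by over 1.5 times or turned their sign. Genes within reach of the background, among them Wnt5b, Wnt6, Fgf12 and Fgf18, cannot be ranked by size.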
